A study of Mus musculus with 4 samples.

Results

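Sncg, Prph, Slc17a6, Isl1, Lhx9 and Tbr1, 6 of the 32286 genes counted, were followed through single cells of the embryonic mouse cerebellum. They were listed by name and chosen by an earlier comparison of the genotypes in Purkinje-like cells of the same libraries. The Purkinje-like comparison is therefore a description here, with no test, and tests were kept to cells outside that class. The question asked of the 6 genes was in which cells they were detected together and how that differed between genotypes.

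The cells were sorted for the red fluorescent protein tdTomato from cerebella of mouse embryos at E15.5. Control embryos had the genotype Ptf1aCre/+; R26LSL-tdT/+, and mutants, called En1/2 CKO, had Ptf1aCre/+; En1lox/lox, En2lox/lox; R26LSL-tdT/+. All embryos thus carried 1 Cre allele at Ptf1a, a transcription factor gene of the progenitors of cerebellar GABAergic neurons, and 1 Cre-dependent tdTomato reporter, so that both reporter and deletion were limited to cells with a history of Ptf1a-driven Cre. Each genotype had 2 libraries (control 1, control 2, mutant 1 and mutant 2), each from pooled animals, and p-values measure the spread between these pools.

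The 6 genes belong to different neuronal programmes. Sncg encodes gamma-synuclein and Prph encodes peripherin, a neuronal intermediate filament protein. Both are known from sensory, autonomic and motor neurons with peripheral axons. Slc17a6 encodes VGLUT2, the transporter that loads glutamate into synaptic vesicles, and its presence defines many glutamatergic neurons. Isl1 and Lhx9 encode LIM homeodomain transcription factors, Isl1 of sensory and motor neurons and Lhx9 of early glutamatergic neurons of the rhombic lip, including those of the cerebellar nuclei. Tbr1 encodes a T-box transcription factor of medial glutamatergic cerebellar nuclei neurons. Purkinje cells and interneurons, the main Ptf1a lineage, release GABA.

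Between 1163 and 9487 cells per library were kept, 22843 in all, with 5305154 to 21021428 unique molecular identifiers (UMIs, 1 per captured RNA molecule) per library before filtering. Control 2 stood apart: 25.5% of its barcodes passed the cell filter, its median mitochondrial share was 13.4%, and it held 28 Purkinje-like cells against 974, 443 and 456 in control 1, mutant 1 and mutant 2. En1, in CPM (UMIs scaled to a sum of 1000000) over kept cells, was 110 and 78.0 in the controls and 70.5 and 62.4 in the mutants. En2 was 102 and 48.8 CPM in the controls and 30.5 and 15.4 in the mutants. The position of the lox sites is not given in the sources used here, and tags from the 3' end may lie outside the deleted stretch, so these levels check the deletion only in part. Of the barcodes, 121 occurred in more than 1 library.

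The promoters of the genes found together in the richest cells are shown because those cells are what the account below turns on. In RefSeq on GRCm38.p6, which had an entry for all 6 genes, the window runs from 250 bases before to 50 bases after the start. Capitals mark TAAT or its reverse complement ATTA, the core that homeodomain proteins such as ISL1 and LHX9 bind, and CAGCTG, a palindromic E-box. Sncg lies on the minus strand of chromosome 14 (gene body 34370274 to 34374789, protein coding), and its window is chr14:34374620-34374919. Prph lies on the plus strand of chromosome 15 (99055174 to 99058978, protein coding), and its window is chr15:99054924-99055223. Isl1 lies on the minus strand of chromosome 13 (116298281 to 116309689, protein coding), and its window is chr13:116309639-116309938. Each is written 5′ to 3′ on the strand of its gene.

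Sncg: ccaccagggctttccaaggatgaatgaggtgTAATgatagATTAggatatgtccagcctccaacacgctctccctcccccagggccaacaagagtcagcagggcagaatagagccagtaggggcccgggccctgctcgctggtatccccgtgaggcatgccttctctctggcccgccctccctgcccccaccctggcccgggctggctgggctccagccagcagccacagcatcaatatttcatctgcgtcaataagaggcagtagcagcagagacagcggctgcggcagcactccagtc

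Prph: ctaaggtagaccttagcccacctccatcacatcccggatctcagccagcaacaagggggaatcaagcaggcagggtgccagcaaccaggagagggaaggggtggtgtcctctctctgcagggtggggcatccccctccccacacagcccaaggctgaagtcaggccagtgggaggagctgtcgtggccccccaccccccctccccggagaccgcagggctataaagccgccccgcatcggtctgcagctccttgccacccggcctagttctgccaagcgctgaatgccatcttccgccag

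Isl1: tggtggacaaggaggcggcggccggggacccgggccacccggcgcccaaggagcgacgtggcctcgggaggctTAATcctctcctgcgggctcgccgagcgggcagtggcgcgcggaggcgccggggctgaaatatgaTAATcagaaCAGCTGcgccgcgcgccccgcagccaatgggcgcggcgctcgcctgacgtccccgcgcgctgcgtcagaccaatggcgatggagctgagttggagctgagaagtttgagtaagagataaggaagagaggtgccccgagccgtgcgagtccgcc

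The Sncg window held 2 TAAT matches, the Isl1 window 2 TAAT matches and 1 CAGCTG match, and the Prph window neither. On both strands, TAAT occurred in 58.0% and CAGCTG in 16.3% of 32851 promoter windows of the same length, and no TAAT match overlapped a CAGCTG match in these sequences. The T-box motif TCACACC, in 3.98% of all windows, was in none of the windows of the 6 genes. These matches describe letters in the window and nothing about binding. Slc17a6 lies on chromosome 7 (51622006 to 51671119), Tbr1 on chromosome 2 (61802930 to 61814114) and Lhx9 on chromosome 1 (138825186 to 138848577). En1 is on chromosome 1 too, and only mutants carried its floxed allele, so for Lhx9 an effect of neighbouring DNA cannot be told apart from one of the deletion.

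All 6 genes were rare. Sncg had 1 or more UMIs in 471 of 22843 kept cells, Lhx9 in 94, Slc17a6 in 76, Prph in 53, Tbr1 in 19 and Isl1 in 14. In the order control 1, control 2, mutant 1, mutant 2, Sncg was detected in 89, 26, 139 and 217 cells. Prph was detected in 19, 1, 13 and 20 cells, and Slc17a6 in 14, 2, 22 and 38. Isl1 was found in 1 control cell and in 13 mutant cells (5 and 8). Lhx9 was found in 39, 1, 24 and 30 cells, and Tbr1 in 3, 2, 9 and 5. At least 1 of the 6 genes was detected in 1.64% and 2.75% of control cells and in 4.07% and 4.12% of mutant cells.

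The genes had different homes among 20 clusters, which were made without them. Clusters carry the suffix -like because their names come from marker lists applied here. Slc17a6, the glutamate transporter gene, was in 29 of 774 cells of cluster 11 (led by Snhg11, Fgf3 and Cntn5, Purkinje-like), in 20 of 1047 cells of cluster 10 (Barhl1, Atoh1, granule lineage-like) and in 10 of 3292 cells of interneuron-like cluster 0. Lhx9 was in 25 of 1940 cells of cluster 3 (unnamed, led by Neurog1), in 11 cells each of clusters 1 and 10, and in 9 of cluster 11. Prph was in 10 cells of cluster 11, which held 82.6% of its UMIs, and in 7 of cluster 10. Isl1 was in 5 cells of cluster 11, with 67.7% of its UMIs. Tbr1, with 20 UMIs in all, reached 1.47 CPM at most in any cluster of at least 50 cells and had no main site. Sncg was different again, with its largest numbers of positive cells in astroglia-like cluster 7 (104) and dividing cluster 12 (79).

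**Figure D1:**
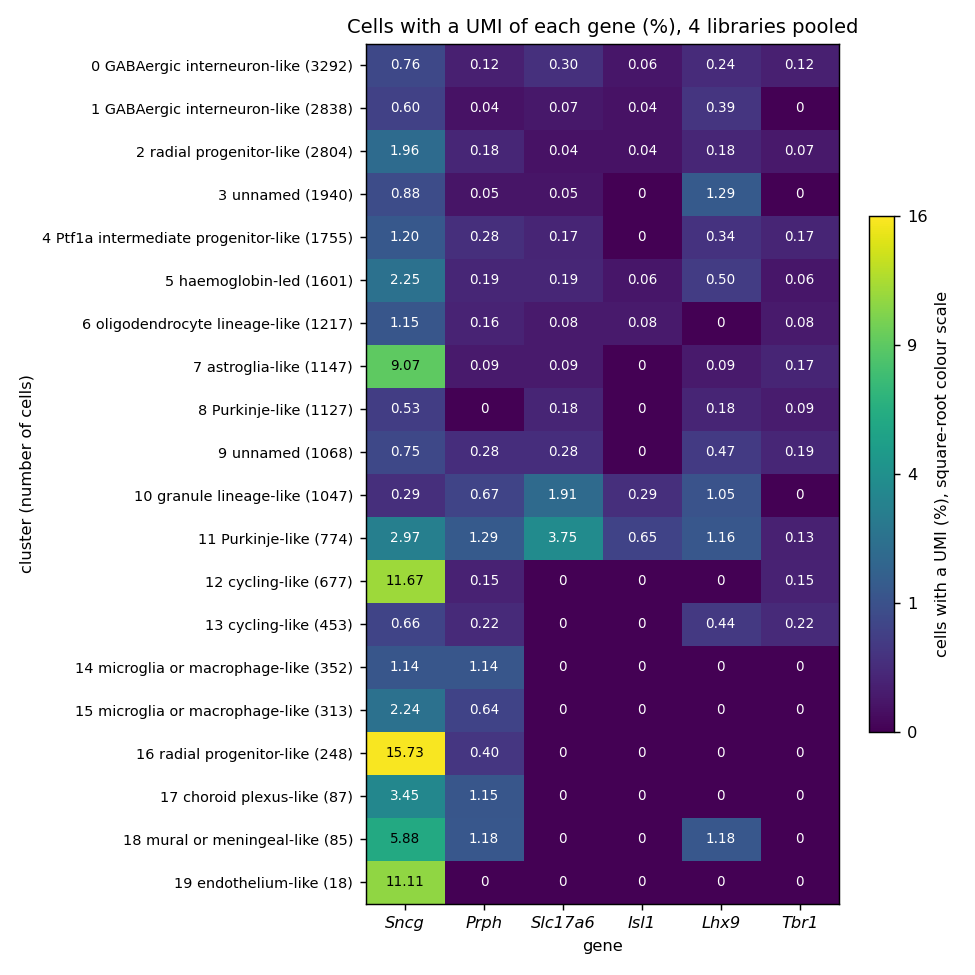
Share of cells (%) with at least 1 UMI of each gene (columns) in each cluster (rows, number of cells in brackets), 4 libraries pooled, on a square-root colour scale. Slc17a6 peaks in clusters 11 (3.75%) and 10 (1.91%), while Sncg peaks in cluster 16 (15.7%) and cluster 12 (11.7%), and the 18 cells of cluster 19 are too few to read.

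Co-detection was rarer still. UMIs of at least 2 of the 6 genes were found in 32 cells, 9 of 10650 control cells (0.0845%, exact Clopper-Pearson 95% interval 0.0386 to 0.160%) and 23 of 12193 mutant cells (0.189%, interval 0.120 to 0.283%). Intervals and limits here cover counting error only, and cells of 1 library are not replicates. By library the counts were 9 of 9487 in control 1, 0 of 1163 in control 2 (which allows a share of up to 0.258%), 9 of 4893 in mutant 1 and 14 of 7300 in mutant 2. At least 3 of the genes were found in 4 cells, all of them mutant and all in cluster 11, against 0 of 10650 control cells, which allows up to 0.0282%. Of the 32 cells, 17 lay in cluster 11, 6 in cluster 10 and 9 elsewhere. Cluster 11 contributed 4 such cells in control 1, 2 in mutant 1 and 11 in mutant 2.

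Pairs were counted over all kept cells. Sncg and Prph were found together in 12 cells, Sncg and Slc17a6 in 9, Prph and Slc17a6 in 5, Sncg and Isl1 in 4, Prph and Isl1 in 4, and Slc17a6 and Isl1 in 3. Slc17a6 and Lhx9 were found together in 10 cells, and Sncg and Lhx9 in 2. No cell held Prph with Lhx9 or Isl1 with Lhx9, and none of the 19 Tbr1 cells held another of the genes, which allows up to 15.8% of them. For Isl1 the same limit with Lhx9 is 21.4% of its 14 cells. The pairs that include Sncg or Isl1 were found mostly in cluster 11, with 7 of the 12 Sncg and Prph cells and 8 of the 9 Sncg and Slc17a6 cells. The Slc17a6 and Lhx9 cells were 5 in cluster 10, 3 in cluster 11 and 2 in interneuron-like cluster 1.

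**Figure D2:**
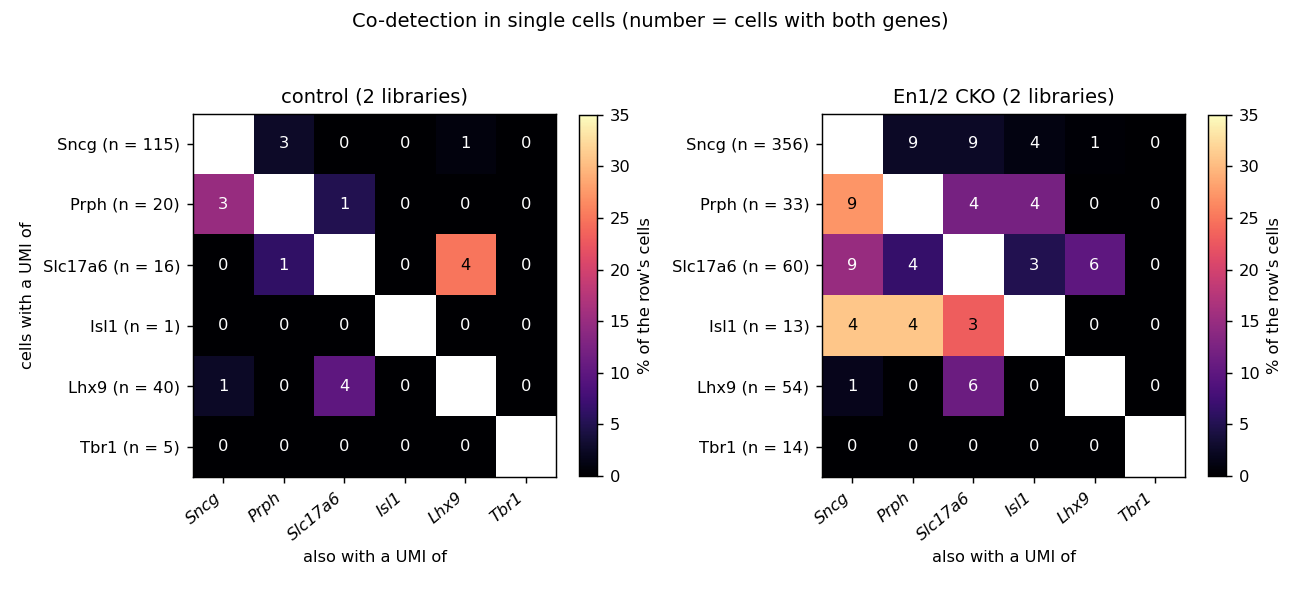
Cells with both genes of a pair (number) and that number as a share of the row's cells (colour, %), controls left and mutants right, with the row's number of positive cells in brackets. Slc17a6 cells with Lhx9 occur in both genotypes (4 and 6), while Sncg cells with Slc17a6 (9) or Isl1 (4) are listed only in the mutant panel.

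Slc17a6 cells were set beside each partner in each genotype. In controls, 4 of 16 Slc17a6 cells also held Lhx9 (25.0%, interval 7.27 to 52.4%), against 0.376% of all control cells, and 0 of 16 held Sncg (interval 0 to 20.6%). In mutants, 6 of 60 Slc17a6 cells held Lhx9 (10.0%, interval 3.76 to 20.5%), against 0.443% of all mutant cells. In mutants 9 of 60 held Sncg (interval 7.10 to 26.6%), against 2.92% of all mutant cells. Each interval counts cells pooled over libraries, so neither overlap nor a gap between them compares the genotypes. Most Sncg and Slc17a6 cells lay in cluster 11, part of the class from which the genes were chosen. All 9 Sncg and Slc17a6 cells were mutant, 3 in mutant 1 and 6 in mutant 2, and the difference between genotypes was not tested.

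Of Prph cells, 3 of 20 in controls (interval 3.21 to 37.9%) and 9 of 33 in mutants (27.3%, interval 13.3 to 45.5%) also held Sncg. These intervals also count pooled cells, and the genotypes were not compared by them. All 4 cells with both Prph and Isl1 were mutant, 2 per library, and 1 control cell in all held Isl1, so that the controls set no useful limit. Cells that held 2 of the genes were deep, with a median of 5100 UMIs among the 17 Purkinje-like ones against 1281 in Purkinje-like cells with none of the 6. The part of depth in these overlaps was not tested.

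A single cell in each mutant library held most Prph and Isl1 UMIs of the class, and most Sncg UMIs in mutant 1 but not in mutant 2. In Purkinje-like cells, Sncg had 7, 0, 118 and 154 UMIs in control 1, control 2, mutant 1 and mutant 2, which is 5.03, 0, 137 and 191 CPM. Both mutants thus lay above both controls, but control 2 had so few cells that its 0 allows up to 38.1 CPM. Of these UMIs, 111 of 118 in mutant 1 and 69 of 154 in mutant 2 were in 1 cell. Prph had 8, 0, 102 and 99 UMIs, or 5.74, 0, 118 and 123 CPM. The same 2 cells held 100 and 93 of the mutant Prph UMIs. Isl1 had 1, 0, 14 and 8 UMIs, of which these cells held 13 and 6.

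Without the cell richest in Sncg and Prph in each library, the Purkinje-like mean of Prph went from 120 ± 3.23 to 4.96 ± 3.65 CPM in mutants (SD, n = 2) and from 2.87 ± 4.06 to 1.08 ± 1.53 in controls. For Isl1 the mutant mean went from 13.1 ± 4.45 to 1.85 ± 0.939 CPM, against 0.360 ± 0.509 CPM in controls, where control 1 kept its 1 UMI. For Sncg it went from 164 ± 38.3 to 57.6 ± 69.7 CPM, against 2.52 ± 3.57 in controls, so that 1 mutant library carried what was left. Slc17a6 was spread over more cells. It had 11, 0, 12 and 32 UMIs, or 7.90, 0, 13.9 and 39.7 CPM, with at most 4 UMIs in a cell. Its mutant mean barely moved, from 26.8 ± 18.2 to 24.8 ± 18.3 CPM, against 3.95 ± 5.58 and 3.24 ± 4.58 in controls. Lhx9 was at 7.18, 0, 0 and 16.1 CPM, with mutants on both sides of control 1, and Tbr1 at 1.44, 0, 1.16 and 0 CPM.

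**Figure D3:**
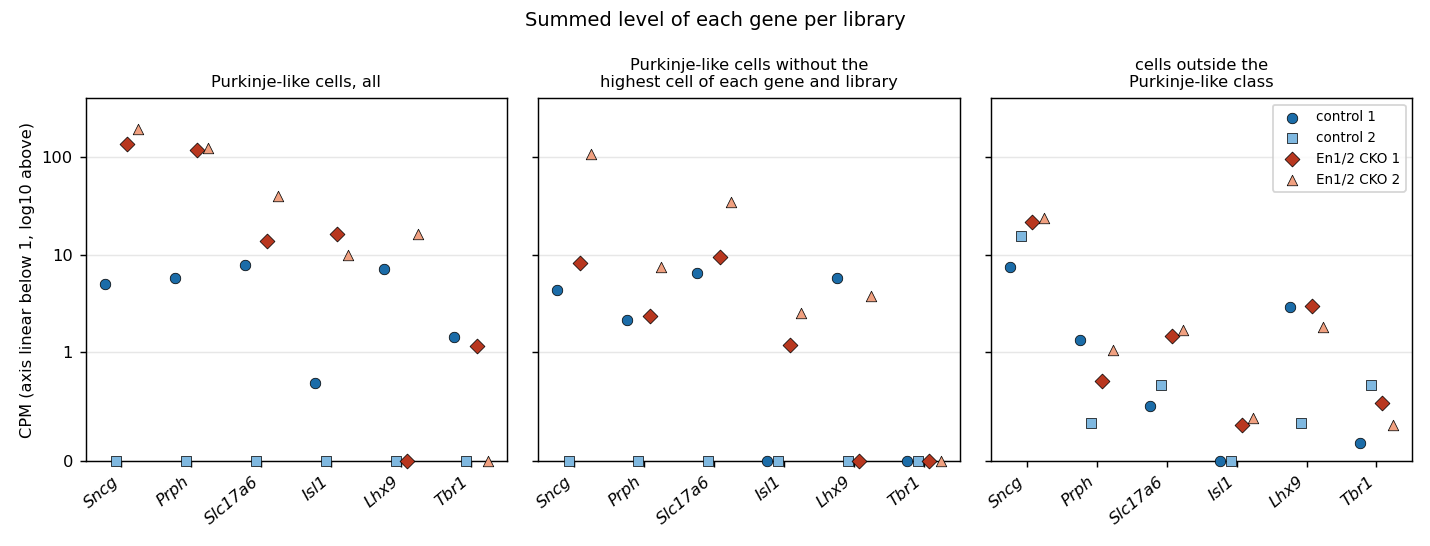
Level of each gene (CPM, axis linear below 1 and log10 above) in each library, for Purkinje-like cells, for the same cells without the highest cell of each gene in each library, and for all other cells. Prph falls from 118 and 123 CPM to 2.37 and 7.54 CPM in the mutants once 1 cell per library is left out.

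Cell 1 of mutant 1, with 20321 UMIs, held 111 Sncg, 100 Prph, 13 Isl1 and 2 Slc17a6 UMIs. It also held 6 of 10 genes of a sensory neuron marker list, led by Avil (18 UMIs, an actin regulator of sensory neurons), Ret (8, a receptor for glial-derived neurotrophic factors) and Tlx3 (6, a homeodomain factor of sensory neurons). Cell 1 of mutant 2, with 11191 UMIs, held 69 Sncg, 93 Prph, 6 Isl1 and 2 Slc17a6 UMIs. It held 6 of the 10 sensory markers too, among them Avil (7), and 16 UMIs of Gal, which encodes the neuropeptide galanin. Both cells had Fxyd7 (19 and 13), Scn9a (9 and 8, a sodium channel of sensory neurons) and S100a10 (27 and 23, a partner of annexin A2).

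Of the 13 Purkinje markers the first cell held 4 (20 UMIs) and the second 2 (32 UMIs). In the first these were Ebf1 (16), Ebf2 (2), Foxp1 and Bcl11a (1 each), and in the second Ebf1 (24) and Pcp4 (8). Ebf1 is shared by Purkinje cells and sensory neurons. Calb1, Skor2, Foxp2, Gad1 and Gad2 were at 0 in both, and Slc32a1, the vesicular GABA transporter gene, had 1 UMI in the second. Of the 9 motor neuron markers each held only Isl2 (4 and 1 UMIs), and Chat, the acetylcholine synthesis gene, was at 0. Neither had En1 or En2 UMIs, and tdTomato had 3 and 12. In doublet score they stood at percentiles 49.7 and 62.1 of their libraries. Calb1, Skor2 and Foxp2 were thus missing from both cells, which lay in Purkinje-like cluster 11. Over that cluster Foxp2 was detected in 47.2% of cells, Gad1 in 12.4% and Gad2 in 12.7%. Calb1 was detected in 9.17% and Skor2 in 2.45%, so most cells of the cluster lacked them too. In both cells sensory markers were found beside Sncg, Prph and Isl1, and whether the cells came from tissue beside the cerebellum was not tested.

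Other cells of the set had fewer sensory markers. Cells 2 and 3 of mutant 2 had 38 and 24 Sncg UMIs with 1 and 0 Prph UMIs, 0 of the 10 sensory markers, and 21 UMIs each of Nefl, the light neurofilament gene. Cell 3 of mutant 1, with 2614 UMIs, had 2 Sncg, 2 Prph, 1 Slc17a6 and 1 Isl1 UMIs and 3 of the 10 sensory markers. In control 1, cell 1 with 4409 UMIs had 5 Prph and 2 Slc17a6 UMIs, no Sncg or Isl1, and 4 of the 10 sensory markers. A control library thus also held a Prph and Slc17a6 cell with sensory markers, at a lower count of Prph. Cells with at least 10 UMIs of any of the genes numbered 12, all of them mutant. Several of these held Sncg alone of the 6 genes and lay in astroglia-like cluster 7 or dividing cluster 12.

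**Figure D4:**
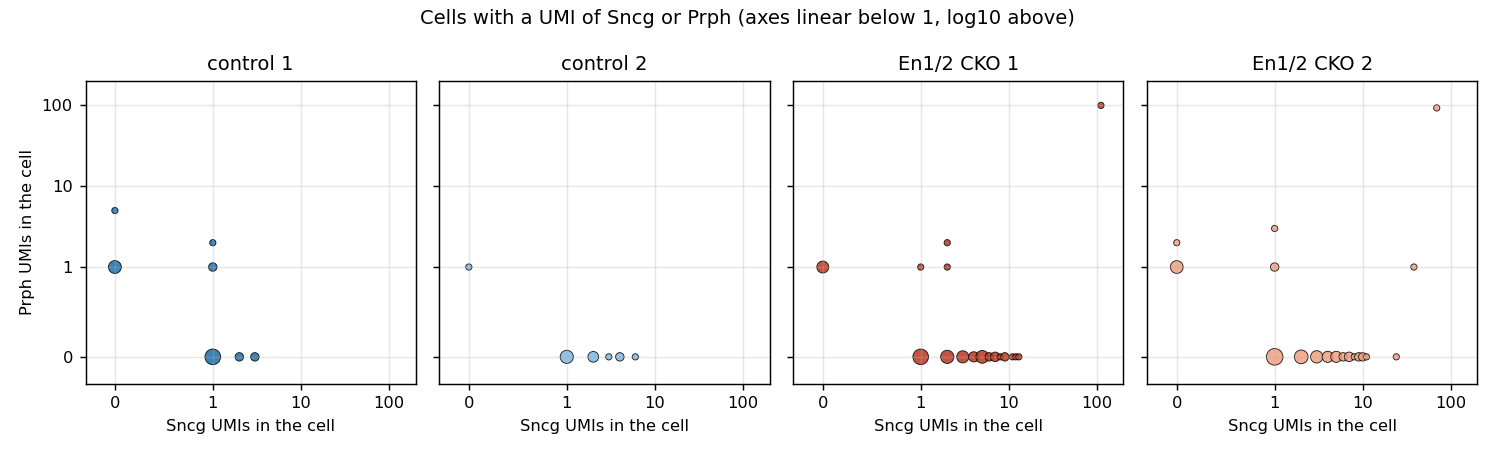
Sncg UMIs (horizontal) against Prph UMIs (vertical) in every kept cell with at least 1 UMI of either, by library, axes linear below 1 and log10 above, point area growing with the number of cells at that position. A single cell in each mutant library lies near 100 on both axes, and the others spread along the Sncg axis with few or no Prph UMIs.

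The Slc17a6 cells of the Purkinje-like class were likewise poor in Purkinje genes. Summed over the 31 such cells, the 13 Purkinje markers were at 1084 CPM against 4663 CPM in the 1837 Purkinje-like cells with none of the 6 genes. GABA markers were at 53.8 against 661 CPM. Sensory markers were at 876 against 146 CPM, and at 355 CPM without the richest cell of each mutant library, which held 79 of 114 such UMIs. Markers of glutamatergic cerebellar nuclei were at 956 against 780 CPM in control 1, 1060 against 1112 in mutant 1 and 1230 against 741 in mutant 2. The tdTomato reporter was at 239 against 430 CPM in control 1, 106 against 404 in mutant 1 and 582 against 474 in mutant 2, so neither had one direction over libraries. Calb1, Skor2 or Foxp2 was detected in 4 of 31 Slc17a6 cells (12.9%, interval 3.63 to 29.8%) and in 57.8% of cells with none of the genes. Gad1, Gad2 or Slc32a1 was detected in 16.1% against 56.2%. Meis2, a homeodomain gene of the nuclei list, was detected in 58.1% (interval 39.1 to 75.5%) against 3.81%. It was also in 45.3% of astroglia-like cluster 7, so it was not particular to nuclei neurons. The Purkinje marker Ebf1 was detected in 58.1% against 70.4%. The Slc17a6 cells were deeper, at a median of 2609 against 1281 UMIs, and the part of depth was not tested. The clusters were made from these cells and their genes, so these contrasts are descriptions. Of the 31 cells, 29 lay in cluster 11, which differs in these markers from cluster 8, the other Purkinje-like cluster. Gad2 was detected in 12.7% of cluster 11 and 35.1% of cluster 8, Foxp2 in 47.2% and 57.6%, and Meis2 in 9.17% and 2.31%. The part of this cluster difference in the contrasts was not tested.

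Purkinje-like cells with Lhx9 differed from those with Prph or Isl1 in the markers beside them. In the 11 Lhx9 cells, the nuclei markers were at 2673 CPM and the sensory markers at 62.2 CPM. In the 10 Prph cells these sums were 546 and 1827 CPM, and in the 5 Isl1 cells 569 and 2077 CPM. The richest cell of each mutant library set much of this: without them the sensory sum was 834 CPM in the 8 remaining Prph cells and 559 CPM in the 3 remaining Isl1 cells. Cell 4 of mutant 2 carried 10 Lhx9 UMIs with 28 Meis2 UMIs and 1 Sncg UMI. Cell 2 of mutant 1, in granule lineage-like cluster 10, carried 18 Lhx9 and 5 Slc17a6 UMIs with 13 of Pou3f1, 9 of Lhx2 and 5 of Neurod2, which are transcription factor genes of the nuclei list. That cell held 18 of the 33 Lhx9 UMIs of its cluster, and it also held 4 En1 and 3 En2 UMIs.

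Genes most alike to each of the 6 in level over 19 clusters of at least 50 cells, by Pearson's r of log2(CPM + 10), were found as a description, since the clusters share libraries and differ in depth. Avil was among the 5 most alike for both Prph (r = 0.970) and Isl1 (r = 0.972), with Gabra5 and Tmem132d on both lists, and Prph itself was on that of Isl1. In cluster 11 the richest cell of each mutant library held 100 and 93 of the 209 Prph UMIs. The same cells held 18 and 7 Avil UMIs, of 28 in the 32 co-detecting cells. The likeness of Avil thus largely restates what those cells held. For Slc17a6 they were Sgcz, Zmat4, Lrrc3b, Ache and Mab21l2 (r from 0.955 to 0.974). For Lhx9 they included Trnp1, Caln1, Chrd and Slc17a6 (r from 0.780 to 0.847). For Sncg they were Coch, Grm7, Cgref1, Lrrc4c and Unc80 (r from 0.810 to 0.863). All 6 genes had their highest level in cluster 11. The richest cell of each mutant library held most Prph and Isl1 UMIs of the cluster, and 111 and 69 of its 273 Sncg UMIs. Of its 52 Slc17a6 UMIs these cells held 2 each, and they held no Lhx9 or Tbr1. Of its 21 Lhx9 UMIs, 10 were in 1 other cell, and its 2 Tbr1 UMIs were in 1 cell. Tbr1 was too low throughout for a likeness to be read.

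Among the 14 cells of mutant 2 with at least 2 of the genes, the only library with 10 or more, the highest-ranked other gene against the remaining cells was Nefl. It was detected in 12 of 14 cells, at a ratio of 33.0 (10 CPM added to both sides). Of these cells 11 lay in cluster 11, and Nefl, Nefm, Caly and Snhg11 are among that cluster's own leading genes, so the ranking also describes the cluster. Nefm, the medium neurofilament gene, was in 12 of 14 (ratio 22.8) and Tac1, the substance P precursor gene, in 6 (ratio 23.1). Arhgdig was in 11, Eef1a2 and Gnal in 10, Syt4 in 9, Fxyd7 and Caly in 8 and Sncb, the beta-synuclein gene, in 7. Pirt and Scn9a, genes of sensory neuron excitability, were in 5 and 7. Nefl was at 750 CPM in the 9 control 1 cells with 2 of the genes, 737 in the 9 of mutant 1 and 1839 in mutant 2. Tac1 was at 0, 83.8 and 240 CPM in the same order.

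Outside the Purkinje-like class, 4 of the 6 genes passed the filter on low counts, and none passed the test between genotypes. Here edgeR's quasi-likelihood test on summed counts called 0% of 14474 genes in either direction at an adjusted p of 0.05, while 732 had an unadjusted p under 0.05. DESeq2 called 52, none of them among the 6. Slc17a6 was at 0.505 and 0.697 CPM in the control libraries and 1.47 and 1.71 in mutants, from 6, 2, 22 and 26 UMIs. Both mutants lay above both controls, as they did for 23.2% of genes tested. Its log2 fold change was 1.44 (SE 0.51, edgeR adjusted p = 0.897), and leaving out each library in turn gave 1.08 to 1.60. Under the stricter cell filter it was 0.45 (SE 0.57). In granule lineage-like cluster 10, Slc17a6 was in 2 of 447, 0 of 115, 9 of 262 and 9 of 223 cells, at 4.39, 0, 10.0 and 14.3 CPM. Median depth there was 1212, 2992, 5133 and 2736 UMIs per cell, so the shares are not compared.

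Interneuron-like cells of cluster 0 had 2, 0, 4 and 6 Slc17a6 UMIs, from 2119, 81, 475 and 617 cells. Its counts were too low for the filter in the sums of interneuron-like and of granule lineage-like cells, and no member was tested there. In edgeR, 0% of 9426 and of 8381 genes were called in those sums, with 319 and 367 at an unadjusted p under 0.05, and DESeq2 called 0 and 1. Outside the Purkinje-like class, Prph was at 1.35 and 0.349 CPM in the control libraries and 0.737 and 1.05 in mutants, with at most 2 UMIs in a cell. Its groups overlapped, with a log2 fold change of -0.27 (SE 0.62, edgeR adjusted p = 0.956). Without control 1 that value was 1.24. In microglia-like cluster 14, which should lack Prph, 4 of 352 cells held a UMI. That is a share of 1.14% at a median of 4084 UMIs per cell. In erythroid-like cluster 5 it was 0.187% at a median of 865 UMIs, so Prph UMIs also occur at a low rate in cells that should lack it.

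Lhx9 was at 2.95 and 0.349 CPM in the control libraries and 3.01 and 1.84 in mutants, with overlapping groups and a log2 fold change of 0.20 (SE 0.73, edgeR adjusted p = 0.974). Without control 2 the Lhx9 value was -0.32, and leaving out each library gave -0.32 to 2.67. Isl1 had 0, 0, 5 and 6 UMIs and did not pass the filter. The mutant levels of 0.335 and 0.395 CPM are above the 0.252 CPM that a count of 0 allows in control 1 and under the 1.05 CPM it allows in control 2. Tbr1 had 2, 2, 8 and 5 UMIs, at 0.168 and 0.697 CPM in the control libraries and 0.536 and 0.329 in mutants, with overlapping groups.

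Outside the Purkinje-like class the 2 control libraries had Sncg at 7.41 and 15.3 CPM and the mutants at 21.6 and 23.6, from 88, 44, 323 and 358 UMIs. Both mutants were again above both controls, with a log2 fold change of 0.99 (SE 0.41, edgeR adjusted p = 0.897). Which control was used decided the call. Without control 1 the value was 0.46, and without control 2 it was 1.57 with an edgeR adjusted p of 0.00299, in a fit that called 18.7% of 15138 genes. In radial and Ptf1a progenitor-like cells Sncg was at 11.2 and 14.0 CPM in the control libraries and 21.1 and 21.6 in mutants (log2 fold change 0.83, SE 0.30, edgeR adjusted p = 0.834). Limiting cells to 2000 UMIs or more gave 0.40 (SE 0.35). Cluster 16, rich in Sncg, made up 14 of 1761, 21 of 242, 124 of 1386 and 89 of 1418 cells of this class. There edgeR called 0% of 11531 genes, with 641 at an unadjusted p under 0.05, and 19.8% had both mutants above both controls. DESeq2 called 2.

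Many Sncg-positive cells lay in clusters of glial, progenitor or dividing cells. Clusters 2 and 16 (radial progenitor-like), 7 (astroglia-like, led by Slc14a2 and Aldoc) and 12 (dividing cells), grouped after their values were seen, held 277 of the 471 positive cells (58.8%), and 3 of these 277 held another of the 6 genes. By library the share was 32.6% in control 1, 80.8% in control 2, 80.6% in mutant 1 and 53.0% in mutant 2. In cluster 7, Aldoc was detected in 43.1% and Slc1a3, the glial glutamate transporter gene, in 83.3% of cells. Sncg there was at 18.8 and 170 CPM in the control libraries and 162 and 109 in mutants, from 259, 56, 289 and 543 cells. For comparison, cells that should lack Sncg held a UMI in 1.14% (microglia-like cluster 14) and 2.25% (erythroid-like cluster 5) of cells, at median depths of 4084 and 865 UMIs. The share was 9.07% in cluster 7 at a median of 1405 UMIs. The 2 controls lay on either side of both mutants. In cluster 12 it was at 13.2, 40.8, 47.0 and 55.7 CPM, and in cluster 2 at 10.6, 14.2, 11.3 and 20.4 CPM.

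Over these 4 clusters together, Sncg was at 13.5 CPM in control 1, 58.4 in control 2, 58.5 in mutant 1 and 58.7 in mutant 2. Control 1 stood alone, and control 2 could not be told from the mutants. The clusters made up 14.7%, 22.5%, 29.9% and 24.0% of kept cells in that order. Sncg outside the Purkinje-like class was at 7.41, 15.3, 21.6 and 23.6 CPM. The share was thus highest in mutant 1 and the Sncg level in mutant 2, with control 1 lowest in both. Of the astroglia markers tested outside the Purkinje-like class, 5 of 7 had both mutants above both controls, as did 23.2% of all genes tested. Their median log2 fold change was 0.36 against -0.06 over all genes. The part of cell make-up in the Sncg difference was not tested. Outside the class, positive cells with 2 or more Sncg UMIs were 4 of 82, 9 of 26, 57 of 134 and 53 of 200, at means of 1.07, 1.69, 2.41 and 1.79 UMIs per positive cell. Both this count and the share of positive cells were thus lowest in control 1, and cell depth differed between the libraries.

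**Figure D5:**
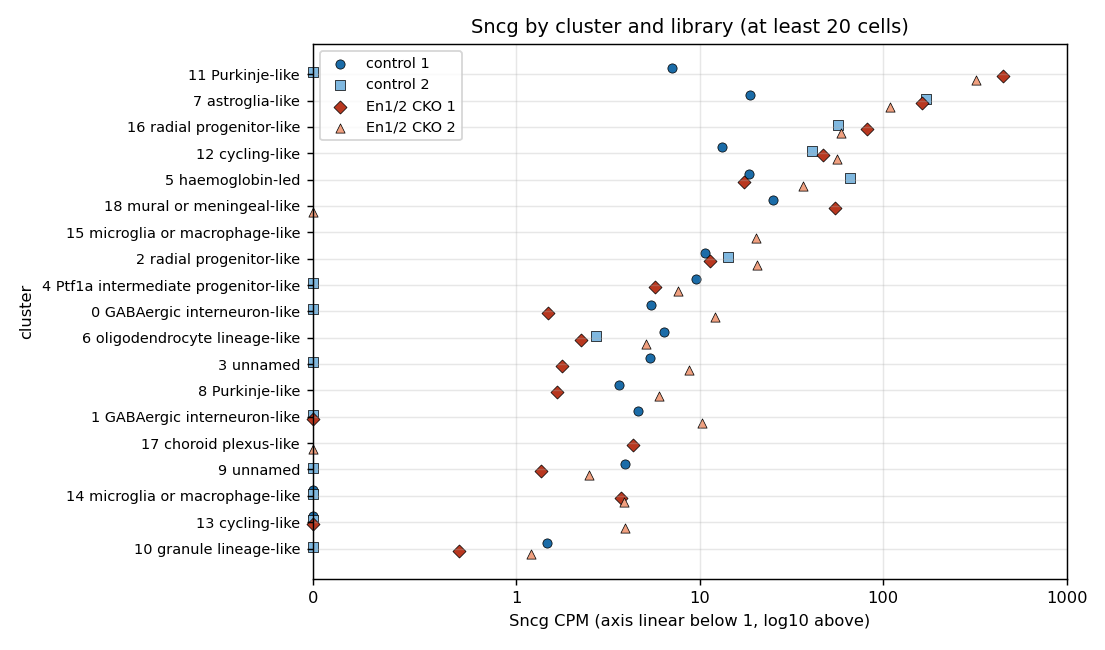
Sncg level (CPM, axis linear below 1 and log10 above) by cluster, ordered by mean, with 1 point per library that had at least 20 cells of the cluster. In astroglia-like cluster 7 control 1 lies at 18.8 CPM and the other libraries between 109 and 170 CPM, and in Purkinje-like cluster 11 the mutants lie at 449 and 320 CPM.

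By share of cells outside the Purkinje-like class, Sncg was detected in 2.97 ± 0.0629% of mutant and 1.63 ± 0.939% of control cells (SD, n = 2, exact permutation p = 0.333, adjusted p = 0.400 over the 6 genes). With 2 against 2 libraries 0.333 is the smallest 2-sided p this test allows. Slc17a6 was detected in 0.340 ± 0.0269% against 0.117 ± 0.0831% (same exact p). In erythroid-like cluster 5, which should lack it, 0.187% of cells held an Slc17a6 UMI at a median of 865 UMIs, and in microglia-like cluster 14 none of 352 did. Cells with at least 1000 UMIs were also thinned to 1000 UMIs each, and the other cells were left out. This gave 1.54 ± 0.263% against 0.932 ± 0.271% for Sncg. For Slc17a6 it gave 0.133 ± 0.0632% against 0.00823 ± 0.0116%, a control mean under its own SD and too low to size the difference. Prph, at 0.233% against 0.138% unthinned, turned to 0.0401% against 0.0576% when thinned, and Lhx9 went from 0.467% against 0.226% to 0.148% in both groups. At least 2 of the genes were found in 0.101 ± 0.0802% of mutant and 0.0294 ± 0.0415% of control cells outside the class (exact permutation p = 0.667), with overlapping groups.

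The wider gene lists were tested in the same fit outside the Purkinje-like class, and 0 genes of any list passed. Of 11 genes for synucleins and neuronal intermediate filaments, 9 were tested, 2 with positive and 7 with negative log2 fold changes (median -0.20, against -0.06 over all 14474 genes). Sncb, whose product is related to gamma-synuclein, was at 7.24 and 8.71 CPM in the control libraries and 3.28 and 3.88 in mutants (log2 fold change -1.20, edgeR adjusted p = 0.897), opposite in sign to Sncg. Of 17 genes of glutamate release and uptake, 15 were tested, 2 positive and 13 negative (median -0.47). Gria2, an AMPA receptor subunit gene, had -0.84. Of 20 transcription factor genes of glutamatergic cerebellar neurons, 20 were tested, 7 positive and 13 negative (median -0.10). Lmx1a, a LIM homeodomain gene of the roof plate and rhombic lip, was at 0.0841 and 0.349 CPM in the control libraries and 2.01 and 1.32 in mutants (edgeR adjusted p = 0.897). Choroid plexus markers moved in the same direction, with both mutants above both controls for 6 of 6 tested, and for 23.2% of all genes tested. Choroid plexus-like cluster 17 had 0 cells in either control and 66 and 21 in the mutants, at a median of 10408 UMIs per cell. These cells were part of the sum outside the Purkinje-like class. The part of choroid plexus cells in the Lmx1a values was not tested.

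Of 15 LIM homeodomain factors and cofactors, 10 were tested, 4 positive and 6 negative (median -0.10), with Lmo1 at 0.76. Of 12 genes of GABA synthesis and GABAergic factors, 11 were tested, 1 positive and 10 negative (median -0.49), with Tfap2a at -0.49. Among 16 axon growth and calcium binding genes of peripheral-type neurons, 14 were tested, 4 positive and 10 negative (median -0.27). Anxa2 and S100a10 of that list stood high in both mutants. Anxa2, the annexin A2 gene, was at 23.3 and 19.9 CPM in the control libraries and 65.0 and 63.2 in mutants (log2 fold change 1.49, SE 0.20, edgeR adjusted p = 0.895). S100a10 was at 8.16 and 6.62 against 17.9 and 19.9 CPM (1.26, SE 0.25, edgeR adjusted p = 0.895). In progenitor-like cells their log2 fold changes were 1.28 and 1.26 (edgeR adjusted p = 0.834 for both). Both mutants lay above both controls there too, as for 19.8% of genes tested, so the rise was not particular to neurons. The sensory neuron markers outside the class showed no such direction, with 2 of 6 tested positive and 4 negative (median -0.44).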

How the data were processed

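Tissue from pooled embryos was dissociated and sorted, and libraries were made with a 10x Genomics droplet 3' kit, per the labels' protocols. Per gene and barcode, the authors' deposited matrices hold whole UMI counts, made with Cell Ranger 6.1.0 on mm10 per the submitters' processing notes, and not normalised. Barcodes and gene names were deposited beside them as text, a unit called other. Whether intron reads were counted is not given in the sources used here. The 6 genes and all lists were chosen with earlier results of these data known.

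A barcode was kept from 500 genes upward and up to a mitochondrial share of 10%. Scrublet gave doublet scores (through scanpy 1.11.5). Where it marked under 0.5% of cells, the top 0.8% per 1000 barcodes were removed instead, which applied to control 1 and both mutants. Removed shares were 8.80%, 1.19%, 6.55% and 9.22%. Leiden clusters (resolution 1, leidenalg 0.10.2) used 2000 variable genes without the 6 genes, En1, En2, TdTom, sex-linked, mitochondrial, ribosomal and haemoglobin genes. A cluster was named where at least 3 markers of a list were raised 1.5-fold. No annotation by the authors was used.

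Sums per library were tested with edgeR 4.0.16 (quasi-likelihood test after filterByExpr and TMM scaling, with Benjamini-Hochberg adjustment). Shares were compared by exact permutation of libraries, and those after thinning to 1000 UMIs used only cells with at least 1000 UMIs. A count of 0 allows up to 3 counts. On simulated counts the fit outside the Purkinje-like class, over 14474 genes, recovered 76% of 4-fold and 16% of 2-fold changes. Alternatives were RLE factors, DESeq2 1.42.0, no filter on counts, doublets kept, cells of 1000 genes and 5% mitochondrial UMIs (the stricter filter), resolution 2, the 6 genes among the variable genes, a replicate block, each library left out, thinning to 1000 UMIs and other thresholds of co-detection. Limiting cells to 2000 UMIs or more, a crossed pairing and the removal of the richest cell (also from marker sums) were added after seeing the data. Named genes are the 6, the 5 most alike to each, the 20 leading genes of co-detecting cells, list genes past the threshold or otherwise the 3 with the smallest p, and detected markers. The text names some of each, and a few named genes are not reported here. Coordinates are from GENCODE vM21 (GRCm38).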

Additional observations from a re-analysis of the deposited data

Results flagged for a closer look

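Barcodes that failed the cell filter, which enter no comparison, also held UMIs of these genes. Sncg reached 18.3 CPM in failed barcodes of mutant 2, above the 7.64 and 5.20 CPM of the controls, with at most 2 UMIs in a barcode. Slc17a6 was at 4.89 CPM in those of mutant 1, against 0 and 4.33 in the controls. Lhx9 was at 6.11 CPM in those of mutant 1, against 5.73 and 0.866 in the controls. Prph was at 0 in failed control barcodes and at 1.22 and 1.17 CPM in those of the mutants. Free RNA, damaged cells and small cells in these barcodes were not told apart.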

How the results depend on the processing

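Outside the Purkinje-like class, edgeR called 0 genes, against 52 with DESeq2, 71 with a replicate block, 9 with crossed numbers and 11 to 2834 with 1 library left out. Interneuron-like counts went from 0 to 15 without a count filter, 2 with a replicate block, 21 with crossed numbers, 3 at resolution 2 and 0 to 622 with 1 library left out. Progenitor-like counts went to 2 with DESeq2, 70 without a filter and 2 to 1392 with 1 library left out. Granule lineage-like counts went to 1 with DESeq2, 19 without a filter, 3 with crossed numbers and 0 to 1325 with 1 library left out. Fits without a control rest on the spread between the 2 mutants, and the lone control was assumed to vary like them. The numbers did not pair the samples (correlation of same-numbered deviations 0.031, and -0.147 to -0.275 in the other sums), and the replicate block changed no call on the 6 genes.

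Of 76 alternative log2 fold changes of these genes, 70 kept direction and call. Leaving out 1 library moved Sncg from 0.46 to 1.57 outside the class, past the threshold only without control 2, Prph from -0.62 to 1.24 and Lhx9 from -0.32 to 2.67. Prph was 2.34 with Purkinje-like cells included. Thinning gave differences of -0.0175 percentage points for Prph and -0.00044 for Lhx9. Tbr1 shares ranged from -0.0498 to 0.103 with 1 library left out, and at least 3 genes per cell left a difference of 0. The causes were not tested. In Purkinje-like cells, the mutant minus control difference was 315 CPM for Sncg and 233 for Prph under the stricter cell filter, 111 for Prph with doublets kept, and 55.0 and 3.88 CPM without the richest cell, which held 94.1% and 44.8% of the mutant Sncg UMIs and 98.0% and 93.9% of those of Prph. Depth limits every statement on Isl1 and Tbr1.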
